A study of Mus musculus with 4 samples.

Results

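The 10 genes described here carry out the last steps by which an intestinal epithelial cell absorbs dietary fat: 4 apolipoproteins (Apoa1, Apoa4, Apob and Apoc3), the lipid loading protein Mttp, 3 acyltransferases that build triglyceride (Dgat1, Dgat2 and Mogat2) and 2 fatty acid binding proteins (Fabp1 and Fabp2). They were selected by gene symbol from a table in which 26144 genes had at least 1 count in 4 RNA sequencing libraries, and each symbol matched 1 row. All 10 passed the filter on low counts that left 14684 genes for testing. With the compound SGC-CBP30, 6 of the 10 (Mogat2, Dgat1, Fabp2, Dgat2, Apob and Apoc3) were lower, Apoa4 was higher, and Apoa1, Mttp and Fabp1 did not pass the test. The decreases ran from 1.18-fold to 1.76-fold and the increase was 1.35-fold.

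Absorptive enterocytes take up fatty acids and monoacylglycerol, bind and activate the fatty acids, and re-esterify them to triglyceride at the endoplasmic reticulum. The microsomal triglyceride transfer protein loads that triglyceride onto apolipoprotein B as the chain is made, and the particle gains further lipid and small apolipoproteins before it is carried to the Golgi and secreted as a chylomicron. The genes are known for high expression on the villus of the proximal small intestine, and several of them are also expressed in the liver.

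The libraries were made from intestinal organoids, three-dimensional cultures of gut epithelium, from C57BL/6 mice of the wild type genotype, 8 to 12 weeks old. Every culture had received 8 Gy of ionising radiation, and RNA was collected 36 h later after exposure to vehicle (n = 2) or to SGC-CBP30 (n = 2), an inhibitor of the acetyl-lysine binding bromodomains of the coactivators CBP and p300. No unirradiated group was analysed here, and the sources used here do not give the compound's dose or when it was added. The treatment label of SGC-CBP30 replicate 2 reads SGC-CBP31, and the library was assigned through its title and the group size given for the series. The labels do not say that replicates were separate cultures or animals, so each p-value reflects library-to-library spread alone, which may be technical.

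Library totals ran from 16433117 to 18087250 counts over 20980 to 21933 genes, so that 3 counts, taken as the lower limit of detection, were worth 0.170 to 0.188 CPM (counts scaled to library size with TMM factors). The epithelial cadherin gene Cdh1 stood at 820 ± 2.56 CPM with vehicle (SD, n = 2), whereas the mesenchymal list summed to at most 17.8 CPM, the immune list to at most 5.37 CPM and the endothelial list to at most 7.70 CPM in any library. The mesenchymal gene Lum had no counts. The list of proximal small intestine markers summed to 5613 and 5807 CPM with vehicle, with the retinol binding gene Rbp2 at 2486 and 2511. The ileum list summed to 1167 and 1212 CPM, most of it from the mucin gene Muc3 at 797 and Guca2a at 220 on average. In the same list the bile acid transporter gene Slc51a was at 125 CPM and Slc10a2 at 6.70 CPM on average, so that the sum rested on few genes. The ileal bile acid binding gene Fabp6 had 0 to 3 counts per library.

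Abundance per unit of gene length was given by FPKM values, which scale counts by gene length and library size. By this measure Apoa1, Fabp1, Apoa4 and Fabp2 were far more abundant than the acyltransferases, with Mttp, Apob and Apoc3 in between. In the vehicle libraries Apoa1 came first, at 5032 and 5136 FPKM, followed by Fabp1 at 3220 and 3116, Apoa4 at 2272 and 2404, and Fabp2 at 1878 and 1851. Mttp followed at 783 and 797 FPKM, Apob at 507 and 520, and Apoc3 at 464 and 467. The acyltransferases came last, with Dgat1 at 253 and 246 FPKM, Mogat2 at 189 and 190, and Dgat2 at 83.4 and 86.5. No neighbours in this order overlapped between the vehicle libraries. In the SGC-CBP30 libraries 2 pairs of neighbours overlapped: Apoa4, at 3396 and 2918 FPKM, with Fabp1, at 3192 and 2112, and Apob, at 389 and 457, with Apoc3, at 423 and 366. Together the 10 genes took 2.73% and 2.75% of all counts with vehicle and 2.83% and 2.65% with SGC-CBP30, so their summed share overlapped between the groups.

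Across all genes tested, 4401 of 14684 passed an adjusted p under 0.05 in edgeR's quasi-likelihood test, which is 30.0%, with 2397 lower (16.3%) and 2004 higher (13.6%). Scaling by library totals alone turned that balance, to 1924 lower and 2907 higher, and without vehicle replicate 2 only 2899 genes were called. Against that background, 7 of the 10 chylomicron genes passed, 6 lower and 1 higher, and these counts were the same with library totals. The members are abundant genes, which are called more often: among 999 abundant genes, whose mean log2 CPM reached 7.5, 55.0% were called, 35.3% lower and 19.6% higher. The median log2 fold change was -0.27 over the members, 0.0096 over all genes tested and -0.036 over the abundant genes. The libraries of the groups did not overlap for 7 members (all but Apoa1, Mttp and Fabp1), against 63.1% of all genes. The share of members without overlap was thus close to that of all genes, whereas the share called lower was above it.

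**Figure D1:**
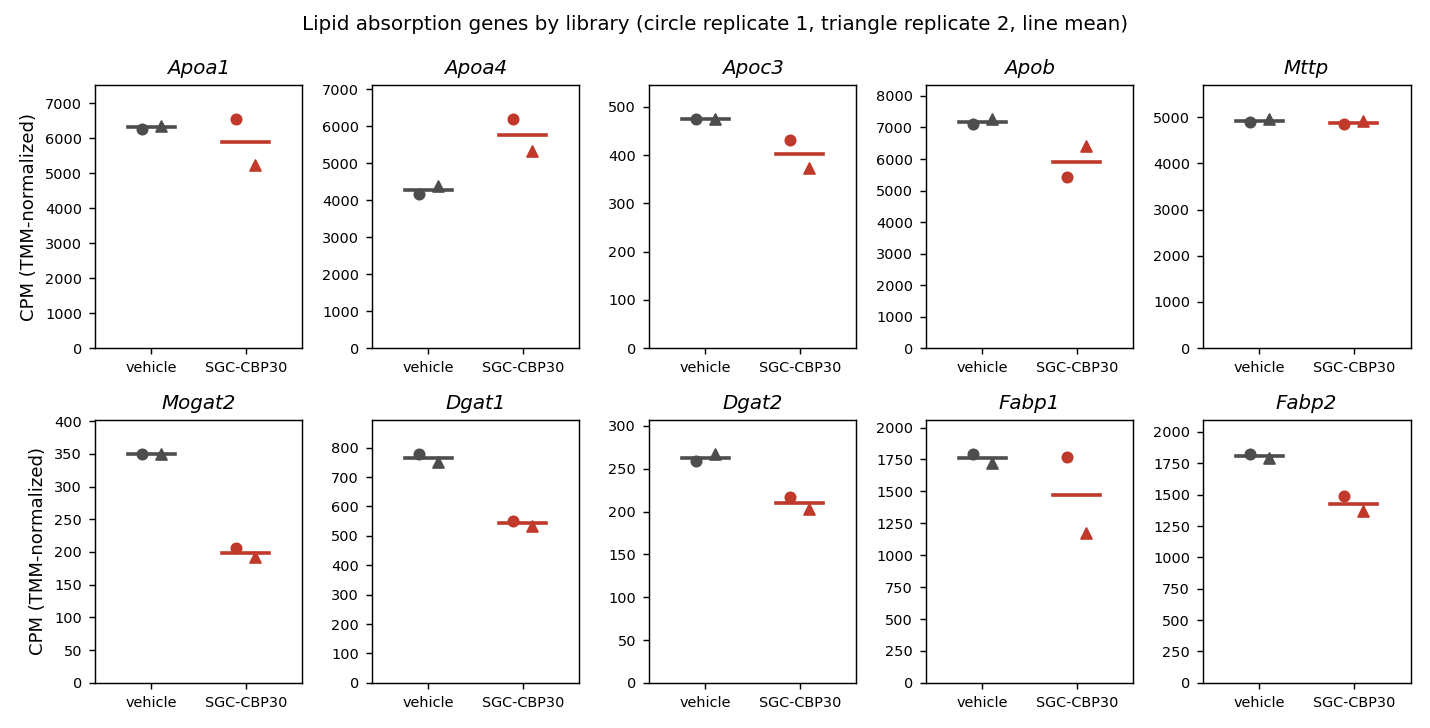
Expression of the 10 genes in each library, in CPM on axes that start at 0, with 1 panel per gene, circles for replicate 1, triangles for replicate 2 and lines for group means. Mogat2, Dgat1, Dgat2 and Fabp2 were lower in both SGC-CBP30 libraries and Apoa4 was higher in both, whereas 1 of the 2 SGC-CBP30 libraries of Fabp1 lay among the vehicle values.

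**Figure D2:**
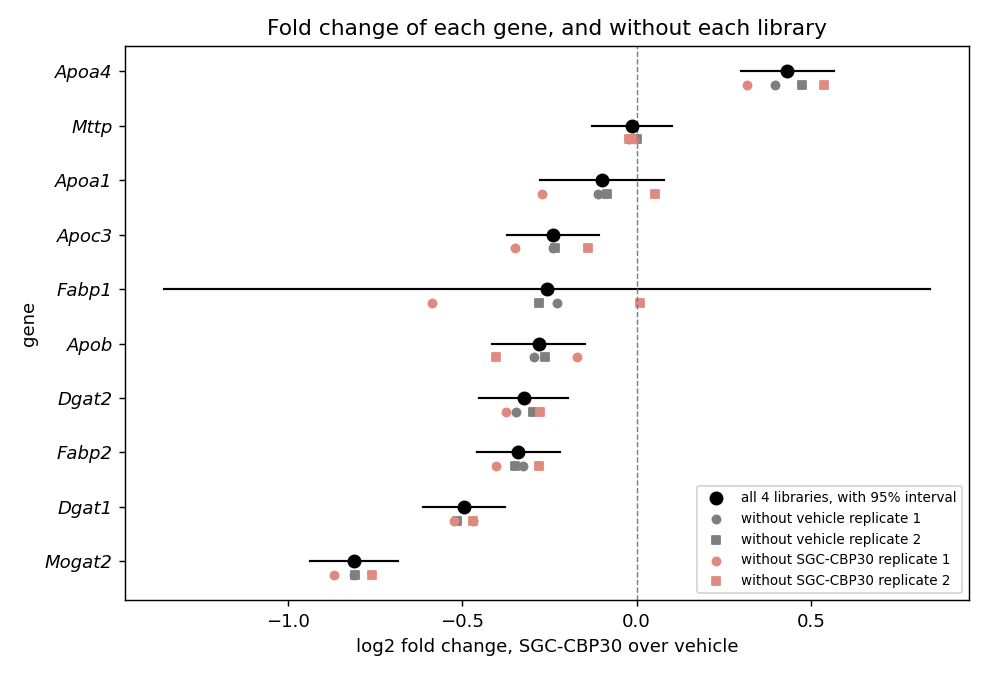
Difference between SGC-CBP30 and vehicle for each gene, as log2 fold change with its 95% interval from edgeR's quasi-likelihood fit. The interval lay below 0 for 6 genes and above 0 for Apoa4, and it was widest for Fabp1, from -1.36 to 0.84.

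Sequences are shown for Apoa1 and Apoa4, which lie in 1 cluster with Apoc3 between them and of which Apoa4 alone passed the test, and for Apob, the structural protein of the particle. Each is a RefSeq promoter window of 300 bases, 250 before and 50 after the RefSeq start of the gene, read 5′ to 3′ along the gene's strand on GRCm38.p6. Of the 10 members 6 had an entry in that set. Capitals mark matches, on either strand, to letters searched in all 32851 RefSeq windows: CAAAGTCCA, a site of hepatocyte nuclear factor 4 (0.475% of windows), its variant CAAAGTTCA (0.390%), the nuclear receptor motif AGGTCA (16.3%), the TATA box TATAAA (13.6%) and the GATA factor site GATAAG (7.44%).
Apoa4 (chr9:46240594-46240893, plus strand): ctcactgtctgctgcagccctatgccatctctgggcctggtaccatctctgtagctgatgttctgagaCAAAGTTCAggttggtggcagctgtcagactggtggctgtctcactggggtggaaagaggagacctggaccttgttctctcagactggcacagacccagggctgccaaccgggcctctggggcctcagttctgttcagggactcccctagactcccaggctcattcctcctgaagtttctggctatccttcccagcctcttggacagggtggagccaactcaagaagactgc
Apoa1 (chr9:46228380-46228679, plus strand): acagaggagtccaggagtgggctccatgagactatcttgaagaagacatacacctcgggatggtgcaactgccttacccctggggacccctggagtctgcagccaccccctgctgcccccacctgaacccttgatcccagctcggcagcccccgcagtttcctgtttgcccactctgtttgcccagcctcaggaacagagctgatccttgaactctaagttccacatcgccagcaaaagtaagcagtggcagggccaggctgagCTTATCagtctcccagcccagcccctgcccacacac
Apob (chr12:7977427-7977726, plus strand): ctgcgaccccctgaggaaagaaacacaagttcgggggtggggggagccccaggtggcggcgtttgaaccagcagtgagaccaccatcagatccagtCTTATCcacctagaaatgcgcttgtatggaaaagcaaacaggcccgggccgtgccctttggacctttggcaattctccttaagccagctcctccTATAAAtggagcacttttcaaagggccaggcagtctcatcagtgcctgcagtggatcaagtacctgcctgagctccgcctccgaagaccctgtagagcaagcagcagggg
The RefSeq starts lie inside the gene starts of the deposited table, by 148 bases for Apoa4, 50 for Apoa1 and 29 for Apob. The Apoa4 window held 1 match, to CAAAGTTCA, which begins 182 bases before the RefSeq start and 34 bases before the table's start. In the Apoa1 window the only match was GATAAG on the opposite strand, 14 bases after the RefSeq start. The Apob window held TATAAA, 60 bases before the RefSeq start and 31 before the table's, and GATAAG on the opposite strand. Of the other windows, that of Fabp1 held 2 AGGTCA matches and 1 TATAAA match, while those of Fabp2 and Mttp held none of these letters. The RefSeq start of Mttp lies 1550 bases inside the table's gene start, which the Mttp window does not reach. A match is a description of the letters only, and binding at these positions was not measured.

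Apoa4, whose protein is secreted on nascent chylomicrons and is produced in response to fat absorption, was the only member that rose. It had 4152 and 4370 CPM in the vehicle libraries and 6184 and 5318 CPM in the SGC-CBP30 libraries. Both SGC-CBP30 libraries were above both vehicle libraries, the first by more than the second. Relative to vehicle the log2 fold change was 0.43 ± 0.06 (SE), with a 95% interval of 0.30 to 0.57 and an edgeR adjusted p of 1.08e-05. With any 1 library left out it stayed between 0.32 and 0.54. The gene lies at chr9:46240696-46243459 on the plus strand of GRCm38 and has 3 exons. Gm47528, annotated across it on the minus strand, had 481 to 726 counts per library against 69825 to 105357 for Apoa4, and a log2 fold change of 0.37 ± 0.10. Reads of these overlapping genes cannot be separated without knowing whether strand was used in counting.

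Apoa1, the main protein of high-density lipoprotein and a component of chylomicrons, had 6262 and 6358 CPM with vehicle and 6541 and 5238 CPM with SGC-CBP30. The SGC-CBP30 libraries lay on either side of the vehicle libraries. Its fold change was -0.10 ± 0.08 on the log2 scale, with an interval of -0.28 to 0.08 and an adjusted p of 0.416 in edgeR. That value rested on the 2 SGC-CBP30 libraries in opposite ways: it was -0.27 without SGC-CBP30 replicate 1 and 0.052 without SGC-CBP30 replicate 2. A fit with 1 library in a group takes each gene's spread from the other group, moderated towards the trend over all genes. It assumes that the lone library varies alike, here and in each such fit below.

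Apoc3, an inhibitor of the clearance of triglyceride-rich particles, had 474 CPM in each vehicle library and 431 and 373 CPM with SGC-CBP30. Both SGC-CBP30 libraries were below both vehicle libraries. The log2 fold change was -0.24 ± 0.06, or 1.18-fold lower, with an interval of -0.37 to -0.11 and an adjusted p of 0.00599 in edgeR. It was the 1 member call of the 7 that was lost when a library was left out: the edgeR adjusted p was 0.0864 without vehicle replicate 1 and 0.0996 without vehicle replicate 2, and the log2 fold change was -0.14 without SGC-CBP30 replicate 2.

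Apoa1, Apoc3 and Apoa4 sit side by side on chromosome 9 of GRCm38. Apoa1 (chr9:46228580-46230466, plus strand, 4 exons) is followed after 2467 bases by Apoc3 (chr9:46232933-46235636, minus strand, 4 exons), and Apoa4 begins 5060 bases beyond Apoc3. Apoa5, a further apolipoprotein gene 25174 bases beyond Apoa4, had 0, 4, 4 and 0 counts and was not tested. Within this stretch, then, 1 gene rose, 1 fell and 1 did not pass the test. Of the 8 tested genes listed around the cluster 0 passed it in edgeR, beside 30.0% of all genes tested. At an unadjusted p under 0.05 edgeR had 0, and DESeq2 and limma-voom called 0. With library totals the kinase gene Sik3 was called higher (0.22, edgeR adjusted p = 0.0335). Some of the 8 had few counts, such as Tagln with 7 to 16 per library, where a change is harder to call. The median log2 fold change of the 8 was 0.073. Among them were Zpr1, the zinc finger gene next to Apoa5, at -0.05 ± 0.11 and the lysosomal membrane gene Sidt2 at 0.01 ± 0.06. The direction of both changed with the library left out.

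**Figure D3:**
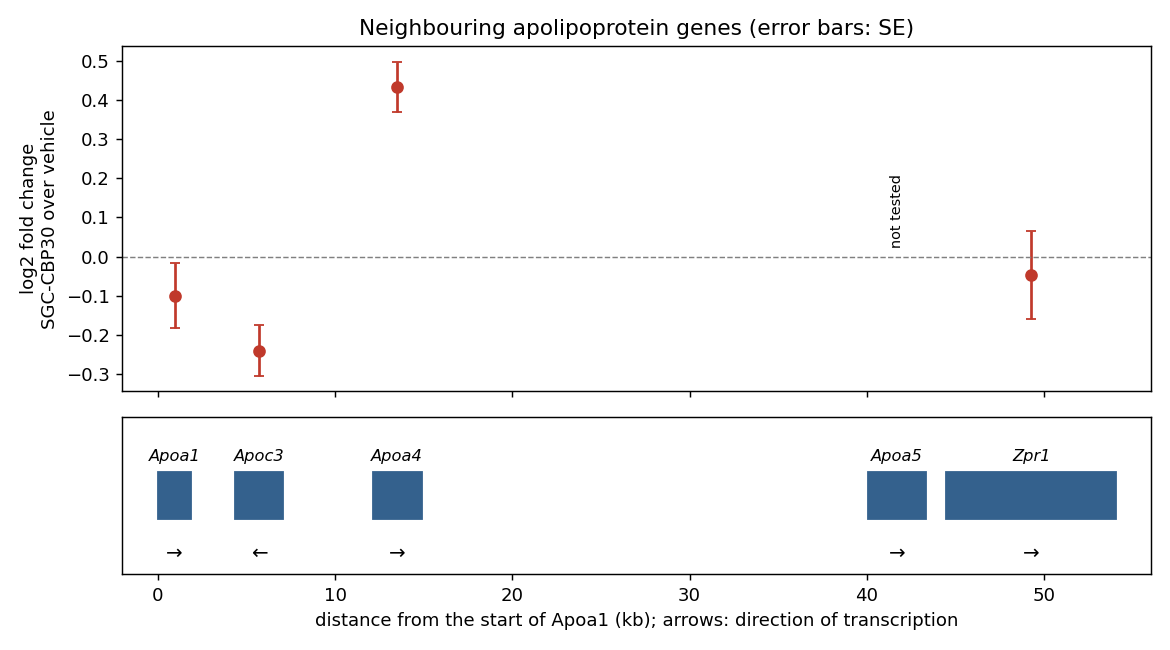
Log2 fold change with its SE (top) and position (bottom) of the genes of the Apoa1 cluster, with distance in kb from the start of Apoa1 on the horizontal axis and arrows for the direction of transcription. Apoa4 lay above 0 and its neighbour Apoc3, 5060 bases away, below it, while Apoa5 was not tested.

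The count ratio of Apoa4 to Apoa1 within a library does not depend on library scaling. It was 0.663 and 0.687 with vehicle and 0.946 and 1.02 with SGC-CBP30, without overlap and 1.45-fold higher in the treated group. The ratio of Apoc3 to Apoa1 was 0.0757 and 0.0746 with vehicle and 0.0658 and 0.0712 with SGC-CBP30, 1.10-fold lower. For these ratios the two-sided exact permutation p was 0.333, the smallest that 2 libraries against 2 allow, and 7 ratios were computed. Adjusted over the 7, no p could be smaller than that. These ratios of counts are not corrected for length, so that they serve only to compare libraries.

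Apob encodes the single large structural protein of the chylomicron. It had 7116 and 7261 CPM with vehicle and 5434 and 6398 CPM with SGC-CBP30. Both SGC-CBP30 libraries were lower than both vehicle libraries, and the gap between the SGC-CBP30 libraries was the larger within-group gap. On the log2 scale the difference was -0.28 ± 0.07, or 1.22-fold lower, with an interval of -0.42 to -0.15 and an adjusted p of 0.00176 in edgeR. Without SGC-CBP30 replicate 1 it was -0.17 and without SGC-CBP30 replicate 2 it was -0.40. The gene spans chr12:7977648-8016835 on the plus strand, with 29 exons, a summed exon length of 13934 bases and an open reading frame of 4505 codons. Since these are bulk cultures, fewer cells that express a gene and less RNA per cell cannot be told apart, for Apob and for each gene below.

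Enterocytes edit Apob messenger RNA: the deaminase Apobec1, with its cofactors, changes a cytosine in a glutamine codon to uracil, which creates a stop codon and yields the short apolipoprotein B-48 of chylomicrons. The edited site is shown because it defines the intestinal form of the protein. It lies in exon 26 (7467 bases) at chr12:8008048-8008077, plus strand, of GRCm38, with the edited base at position 8008054 and the codon, number 2179 from the start codon, in capitals.
Apob editing site: gcgataCAAtttgatcagtatattaaagat
Counts per gene hold no information on how much of the RNA was edited. Among the 6 editing factors listed, the cofactor A1cf fell, from 125 ± 0.179 to 86.9 ± 17.0 CPM (SD, n = 2), a log2 fold change of -0.52 ± 0.10 with an edgeR adjusted p of 0.00116. It was -0.34 without SGC-CBP30 replicate 1, and the call was lost in the added fit that took out each library's trend with gene length (-0.51, edgeR adjusted p = 0.0566). Without SGC-CBP30 replicate 2, 2 of the 6 factors were lower. Apobec1 rose from 50.7 ± 2.71 to 59.2 ± 3.29 CPM, a log2 fold change of 0.23 ± 0.08 with an edgeR adjusted p of 0.0444. Its call was lost with DESeq2 (adjusted p = 0.154), with at least 50 counts in 2 libraries (edgeR adjusted p = 0.0533) and without vehicle replicate 1 (edgeR adjusted p = 0.375), vehicle replicate 2 (0.0962) or SGC-CBP30 replicate 2 (0.148).

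Mttp, the transfer protein without which Apob is degraded, had 4892 and 4954 CPM with vehicle and 4843 and 4911 CPM with SGC-CBP30. The groups overlapped and all 4 values lay within a narrow range. On the log2 scale the difference was -0.013 ± 0.055 with an interval of -0.13 to 0.10 and an edgeR adjusted p of 0.891, and its sign turned with the scaling, to 0.060 with library totals alone and 0.023 with upper-quartile scaling. The gene lies at chr3:138089854-138144968 on the minus strand and has 18 exons. The count ratio of Mttp to Apob was 0.687 and 0.682 with vehicle and 0.891 and 0.768 with SGC-CBP30, 1.21-fold higher without overlap (exact permutation p = 0.333). The ratio of Apoa4 to Apob differed most of the 7, at 0.583 and 0.602 with vehicle and 1.14 and 0.831 with SGC-CBP30, which is 1.64-fold (exact permutation p = 0.333).

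All 3 acyltransferases fell, and Mogat2 fell furthest of the 10 genes. Mogat2 adds a fatty acid to monoacylglycerol, the first step of the main triglyceride route of the enterocyte. It had 349.7 and 349.5 CPM with vehicle and 206 and 192 CPM with SGC-CBP30, with both treated libraries far below both controls. This is a log2 fold change of -0.81 ± 0.06, or 1.76-fold lower, with an interval of -0.94 to -0.69 and an edgeR adjusted p of 1.31e-10. With 1 library left out it ranged from -0.87 to -0.76.

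Dgat1 and Dgat2 are unrelated enzymes that both catalyse the last step, from diacylglycerol to triglyceride. Dgat1 had 778 and 752 CPM with vehicle and 552 and 533 CPM with SGC-CBP30, a separation wider than either within-group gap. Its log2 fold change was -0.50 ± 0.06, or 1.41-fold lower, with an edgeR adjusted p of 2.11e-07. Dgat2 had 259 and 267 CPM with vehicle and 217 and 203 CPM with SGC-CBP30, again lower in both treated libraries. Its log2 fold change was -0.32 ± 0.06, or 1.25-fold lower, with an edgeR adjusted p of 2.52e-04. The ratio of Dgat2 to Dgat1 counts was 0.332 and 0.355 with vehicle and 0.393 and 0.381 with SGC-CBP30, 1.13-fold higher (exact permutation p = 0.333).

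Mogat2 and Dgat2 belong to 1 gene family and are neighbours on chromosome 7, both on the minus strand: Dgat2 at chr7:99153658-99182719 with 8 exons and Mogat2, 36365 bases away, at chr7:99219084-99238619 with 6 exons. Dgat1, with 17 exons, lies at chr15:76502015-76511953 on the minus strand. The count ratio of Mogat2 to Dgat2 was 1.35 and 1.31 with vehicle and 0.951 and 0.945 with SGC-CBP30. The neighbours thus changed unequally, by 1.40-fold and without overlap (exact permutation p = 0.333).

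Fabp2, the intestinal fatty acid binding protein, fell. It had 1824 and 1789 CPM with vehicle and 1488 and 1368 CPM with SGC-CBP30, so both treated libraries were lower. The log2 fold change was -0.34 ± 0.06, or 1.27-fold lower, with an interval of -0.46 to -0.22 and an edgeR adjusted p of 6.49e-05. The gene, of 4 exons, lies at chr3:122895072-122899506 on the plus strand. Fabp1, the liver-type paralog that enterocytes also make, had 1793 and 1726 CPM with vehicle and 1771 and 1173 CPM with SGC-CBP30. Replicate 1 of SGC-CBP30 lay between the vehicle libraries and replicate 2 lay below all others. The log2 fold change was -0.26 ± 0.28, with an interval of -1.36 to 0.84 and an edgeR adjusted p of 0.622. It was -0.59 without SGC-CBP30 replicate 1 and 0.0099 without SGC-CBP30 replicate 2. Without vehicle replicate 2 it was -0.28. Fabp1, also of 4 exons, lies at chr6:71199827-71205023 on the plus strand. The ratio of Fabp1 to Fabp2 counts, 0.983 and 0.964 with vehicle and 1.19 and 0.857 with SGC-CBP30, overlapped between the groups (exact permutation p = 1).

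Among the members, the gap between SGC-CBP30 replicates 1 and 2 rose with gene length, though not in strict order. Replicate 2 was below replicate 1 by 0.59 in log2 CPM for Fabp1 (553 bases), by 0.32 for Apoa1 (1236 bases), by 0.22 for Apoa4 (1815 bases), by 0.21 for Apoc3 (1014 bases) and by 0.12 for Fabp2 (965 bases). It was above replicate 1 by 0.24 for Apob (13934 bases) and by 0.020 for Mttp (6206 bases). None of the 999 abundant genes had a larger gap between the SGC-CBP30 libraries than Fabp1, and 18 had a larger one than Apoa1. Over the 10 genes the gap correlated with log2 length with a Pearson r of 0.89 and a Spearman rho of 0.88. The points come from 1 pair of libraries, and this comparison was chosen after the values were seen.

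A gradient of the same direction was present across the 999 abundant genes, where r was 0.54 and rho 0.57 in the SGC-CBP30 pair, against 0.084 and 0.092 in the vehicle pair. The median gap was -0.11 for 32 genes shorter than 1 kb, 27 of them lower in replicate 2, and 0.088 for 203 genes of at least 8 kb, 169 of them higher in replicate 2. The fold change between the groups was not ordered by length, with r of 0.032 over the abundant genes and 0.016 over the members. In an added fit that took out each library's trend with gene length, the log2 fold change was -0.080 for Apoa1, 0.45 for Apoa4, -0.32 for Apob, -0.21 for Apoc3, -0.79 for Mogat2 and -0.22 for Fabp1 (edgeR adjusted p = 0.604). All 10 genes kept their side of the threshold.

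**Figure D4:**
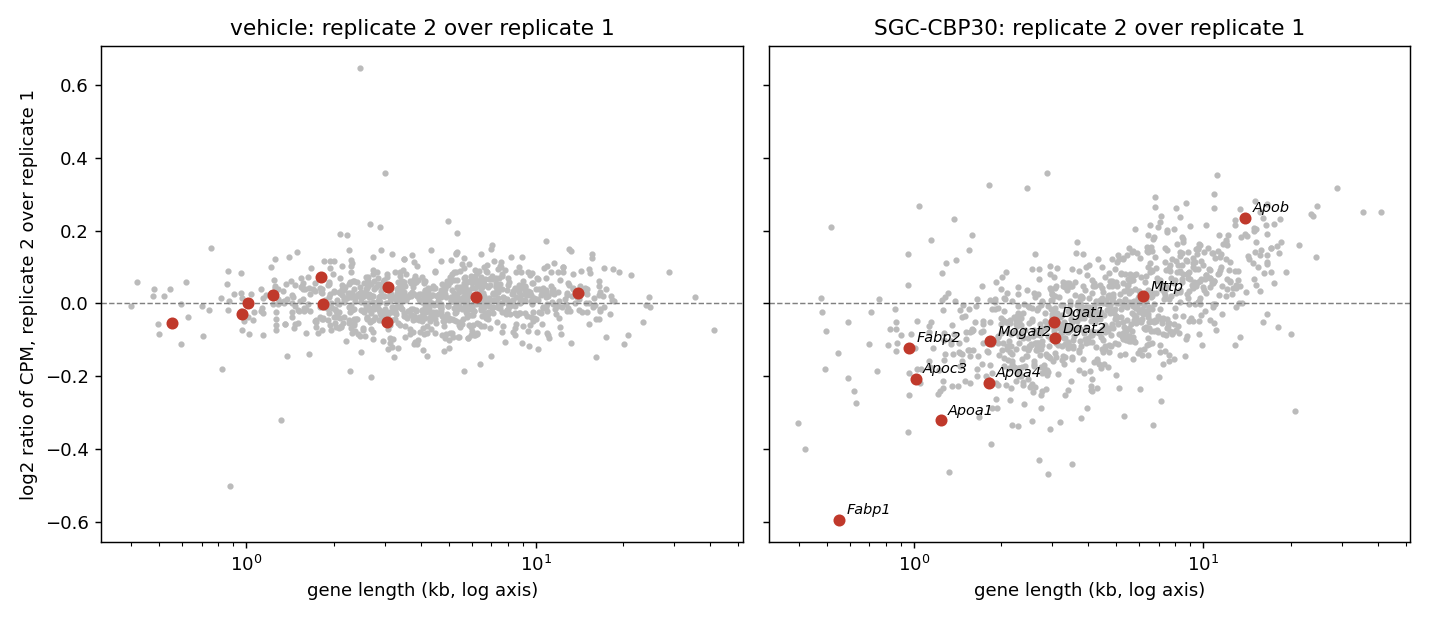
Log2 CPM of replicate 2 minus replicate 1 against gene length on a log axis, for the 999 abundant genes and the 10 named genes, in the vehicle pair and in the SGC-CBP30 pair. In the SGC-CBP30 pair most short genes lay below 0 and most of the longest above it, with Fabp1 at -0.59 and Apob at 0.24, while the vehicle pair showed a Pearson r of 0.084.

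The steps before and after the members were described with 10 lists of pathway genes. The lists held 161 genes, of which 134 were tested, 17 rose and 53 fell, with a median log2 fold change of -0.086 against 0.0096 over all genes. Of all genes tested 13.6% were called higher and 16.3% lower, and of the abundant genes 19.6% and 35.3%. With library totals 26 rose and 46 fell, and the number that rose was 8 without vehicle replicate 1 and 10 without vehicle replicate 2. In the single lists below, leaving out vehicle replicate 1 took the genes that rose from 2 to 1 for the droplet list and from 1 to 0 for uptake and for export, and those that fell from 2 to 1 for cholesterol absorption. The count of 1 for uptake also went to 0 without vehicle replicate 2 or SGC-CBP30 replicate 1, that for export without vehicle replicate 2, and the droplet count to 1 without either SGC-CBP30 library.

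Of the genes for fatty acid uptake, binding and activation, 9 of 14 tested fell and 1 rose, with a median of -0.40. The fatty acid translocase Cd36 fell from 55.5 ± 9.06 to 14.6 ± 0.49 CPM, a log2 fold change of -1.92 ± 0.12 (edgeR adjusted p = 2.57e-12). The transporters Slc27a2 (-0.74 ± 0.07) and Slc27a4 (-0.47 ± 0.06) and the acyl-CoA synthetase Acsl1 (-0.62 ± 0.07) fell as well. Fabp4 and Fabp6, the fatty acid and bile acid binding relatives of Fabp1 and Fabp2, had at most 3 counts per library and were not tested.

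Of the other genes listed for triglyceride synthesis, 5 of 16 rose (among them Lpcat3, a phospholipid acyltransferase), 3 fell and the median was 0.030. Only 2 were higher without vehicle replicate 1, and likewise 2 without vehicle replicate 2. Gpat4, a glycerol-3-phosphate acyltransferase, rose from 58.7 ± 3.07 to 86.0 ± 3.11 CPM (log2 fold change 0.55 ± 0.08), and the lipid phosphatase gene Plpp3 rose by 1.03 ± 0.24 from 3.21 ± 0.062 CPM. Plpp1 fell (-0.87 ± 0.08), and so did Agpat2 (-0.30 ± 0.07), which lost its call without vehicle replicate 1 (edgeR adjusted p = 0.0951). The isozyme Mogat1 had 0 or 1 counts per library, at or under the limit of 3 counts.

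Among genes of the lipid droplet and of intracellular lipolysis, 9 of 16 fell and 2 rose, with a median of -0.47. The carboxylesterase Ces1f fell from 230 ± 1.63 to 71.5 ± 0.125 CPM (log2 fold change -1.68 ± 0.07), the arylacetamide deacetylase gene Aadac from 285 ± 7.41 to 109 ± 1.78 CPM (-1.39 ± 0.06) and the hormone-sensitive lipase gene Lipe from 60.9 ± 1.51 to 29.5 ± 3.35 CPM (-1.05 ± 0.09). Ces1d fell by 0.46 on the log2 scale. Ces1 genes have close copies, and how reads that fit several of them were counted is not given in the sources used here. G0s2, an inhibitor of lipolysis, fell from 2.59 ± 0.228 to 0.232 ± 0.0869 CPM, the latter near the limit of 3 counts.

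Of 23 genes for lipidation of the particle and its export from the endoplasmic reticulum, 14 fell, 1 rose and 8 did not pass the test, with a median of -0.25. Bet1, a membrane fusion protein of the route to the Golgi, fell from 79.8 ± 4.20 to 37.1 ± 1.62 CPM (log2 fold change -1.10 ± 0.08), and the coat subunit gene Sec13 from 179 ± 2.24 to 125 ± 1.28 CPM (-0.52 ± 0.06). The cargo receptor genes Surf4 (-0.36 ± 0.06) and Mia2 (-0.34 ± 0.06) also fell. Named after their values were seen, P4hb, the partner subunit of Mttp, fell (-0.24 ± 0.06, edgeR adjusted p = 0.00242), and Sar1b, the GTPase of chylomicron transport vesicles, was at -0.14 ± 0.06 (edgeR adjusted p = 0.0738).

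Of 16 other apolipoproteins, 5 were tested, of which Apoa2 fell. Apoa2, an apolipoprotein of high-density lipoprotein, had 69 and 48 counts with vehicle and 28 and 24 with SGC-CBP30, a log2 fold change of -1.20 ± 0.34 (edgeR adjusted p = 0.00841). The call was lost without vehicle replicate 1 (edgeR adjusted p = 0.113). The list summed to 32.9 to 35.4 CPM per library, so that the 4 member apolipoproteins supplied nearly all apolipoprotein counts.

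Genes for cholesterol absorption and esterification leaned the other way, with 7 of 12 higher, 2 lower and a median of 0.36. The sterol exporters Abca1 (0.97 ± 0.08), Abcg5 (0.79 ± 0.06) and Abcg8 (0.61 ± 0.06) rose, with Abcg5 going from 382 ± 3.82 to 661 ± 21.5 CPM. The lipoprotein receptor gene Lrp1 fell from 269 ± 1.41 to 83.2 ± 9.58 CPM (-1.70 ± 0.07). Of the lipases and their regulators, 2 of 5 fell, namely the lipoprotein lipase inhibitor Angptl4 (-1.06 ± 0.09) and Angptl8 (-0.64 ± 0.20). The Angptl8 call was lost with DESeq2 (adjusted p = 0.0634) and, in edgeR, without vehicle replicate 1 (0.0508), vehicle replicate 2 (0.0586) or SGC-CBP30 replicate 2 (0.0887).

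Among 29 transcriptional regulators of lipid absorption genes, 12 fell and 0 rose in edgeR, with a median of -0.14. At an unadjusted p under 0.05 edgeR had 1 of them higher, limma-voom called 1 higher and DESeq2 called 0. With library totals, or without either SGC-CBP30 library, 2 were called higher. Hnf4g fell from 527 ± 0.386 to 320 ± 21.3 CPM (log2 fold change -0.72 ± 0.06, edgeR adjusted p = 9.91e-10), whereas its paralog Hnf4a was at 660 ± 15.6 and 726 ± 20.3 CPM (0.14 ± 0.06, edgeR adjusted p = 0.0708). Hnf4a was called higher by limma-voom (adjusted p = 0.0476), and in edgeR with library totals (0.00434) and upper-quartile scaling (0.0200) and without either SGC-CBP30 library (0.0399 without replicate 1 and 3.88e-04 without replicate 2). The coactivator gene Ppargc1a (-1.61 ± 0.12), the carbohydrate response factor gene Mlxipl (-0.52 ± 0.06), Gata6 (-0.46 ± 0.07) and Klf15 (-2.02 ± 0.36) fell.

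**Figure D5:**
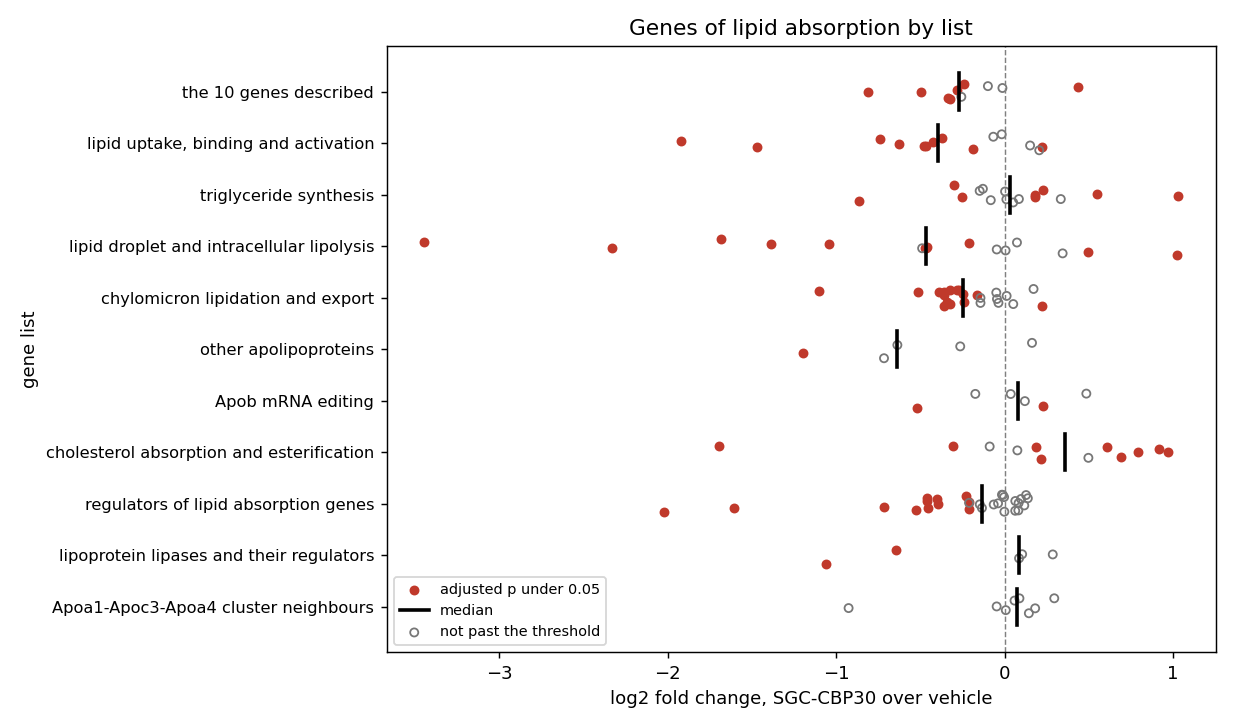
Log2 fold changes of the tested genes in each pathway list and among the 10 named genes, 1 point per gene, with the median of each list. The medians ran from -0.64 for the 5 tested other apolipoproteins to 0.36 for cholesterol absorption and esterification, and the median of the 10 named genes was -0.27. Of those 5 apolipoproteins 4 did not pass the test, and -0.64 is the value of Apoh, which had 8 to 18 counts per library.

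Markers of the cells that express these genes moved as well. Beside them, 16.3% of all tested genes were called lower and 13.6% higher. Among the abundant genes, as many of these markers are, it was 35.3% and 19.6%. Of 19 enterocyte markers 16 fell and 1 rose, with a median of -0.80, and their summed level went from 33701 and 33683 CPM with vehicle to 20972 and 21373 CPM with SGC-CBP30. The brush border enzyme genes Sis (-1.05 ± 0.06) and Treh (-1.21 ± 0.06) fell, and Krt20 rose (0.43 ± 0.07). Sis alone went from 15093 to 7273 CPM on average, the larger part of the fall in that sum. Of 11 markers of villus tip enterocytes 5 rose and 1 fell, and their sum went from 2304 and 2395 to 2849 and 2626 CPM. Krt20, which both lists hold, is among those that rose. It went from 667 to 901 CPM on average, a large part of the rise in the villus tip sum. Of 9 tested markers of the proximal small intestine 2 rose and 3 fell, and their sum was 5613 and 5807 CPM with vehicle and 5204 and 4698 CPM with SGC-CBP30. The alcohol dehydrogenase gene Adh6a fell (-1.47 ± 0.06), and Rbp2 was at -0.05 ± 0.07. The part of these epithelial markers in the members' changes was not tested.

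Markers of other cell types were counted in the same way. Of those tested, 3 of 9 Paneth cell markers fell, 4 of 9 goblet cell markers fell and 1 rose, 3 of 11 enteroendocrine markers fell and 2 rose, 2 of 6 tuft cell markers fell, and 2 of 9 stem cell markers fell and 1 rose. Of 8 ileum markers 4 fell and 1 rose. Over all genes tested 16.3% were called lower and 13.6% higher, and among the abundant genes 35.3% and 19.6%. These small counts are therefore not read as changes of a cell type. In the lists for cells outside the gut epithelium, the mesenchymal gene Vim (-0.75 ± 0.15 from 16.1 CPM) and the immune gene Csf1r (-1.95 ± 0.43 from 2.69 CPM) fell. So did the endothelial gene Lyve1 (-1.25 ± 0.36 from 3.02 CPM) and the hepatocyte gene Cyp2e1 (-0.83 ± 0.20 from 229 and 146 counts). These were the only calls in their lists, of which 2 of 9, 2 of 8, 3 of 7 and 4 of 8 genes were tested, in that order. The other tested mesenchymal and immune genes, Pdgfrb (0.12 ± 0.55) and Cd68 (0.19 ± 0.40), did not pass the test. Some untested genes had more counts with SGC-CBP30, such as Col3a1 (1 and 1 to 16 and 7) and Itgax (2 and 1 to 13 and 9). The calls of Lyve1 (edgeR adjusted p = 0.0707) and Cyp2e1 (0.0995) were lost without vehicle replicate 1. The hepatocyte genes Fgb and Ahsg had no counts and Alb, the albumin gene, had 9 to 16 per library. The adipocyte genes Lep, Plin1 and Retn had no counts, whereas Cidec, which the lipid droplet list also holds, stood at 43.9 CPM with vehicle. The part of these genes in the members' changes was not tested.

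In the authors' deposited table of the comparison, the same 6 members had an adjusted p under 0.05 and a negative log2 fold change, and Apoa4 had a positive one. In the authors' deposited table Mogat2 stood at -0.81 (adjusted p = 9.67e-29), Apoa4 at 0.43 (1.1e-08) and Apoc3 had the largest adjusted p of the 7, 0.0102.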

How the data were processed

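Total RNA of 4 libraries (vehicle, n = 2; SGC-CBP30, n = 2) was sequenced after a NEBNext preparation. The 10 genes and all gene lists were chosen with earlier results of these data known. According to the submitters' processing notes, which assign no roles, the tools were featureCounts 1.5.0-p3, HISAT2 2.0.5 and StringTie 1.3.3b, and the build was mm9. Gene positions in the deposited table equal those of GENCODE M21 on GRCm38 for 98.5% of 51476 shared identifiers and are given here as GRCm38, counted from 1. Whether counting used strand, and how multiply placed reads were treated, is not stated in the labels or the table.

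Per the file headers, the authors deposited raw counts per gene. The authors' FPKM values, recomputed from the table, are the count over gene length and over a library total rescaled by 1 factor per library, and the length in bases is the deposited one. The authors also deposited a log2 fold change with a p-value and an adjusted p-value, whose test has no name in the table. The last of 51509 lines was incomplete and was left out.

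The counts were tested with edgeR 4.0.16 in R 4.3.3 (quasi-likelihood F test, robust, TMM scaling, filterByExpr), with Benjamini-Hochberg adjustment over all 14684 genes tested and a threshold of 0.05. CPM values use the TMM scaling, and ratios were compared with two-sided exact permutation tests. In simulated data the edgeR test recovered 84 of 100 genes changed 1.5-fold and 98 of 100 changed 2-fold, with 15 false calls among 197. Changes smaller than 1.5-fold, the range of all called members but Mogat2, were not simulated. Alternatives were DESeq2 1.42.0 (size factors, and its Wald test), limma-voom (limma 3.58.1), library totals, upper-quartile scaling, no filter, at least 50 counts in 2 libraries, each library left out, a replicate block and, added after the values were seen, an offset for each library's trend with gene length. The genes named besides the members were, per pathway list, up to 4 called genes of smallest p and the called gene of largest change (where none was called, the gene of smallest p), per marker list the gene of smallest p and that of highest mean count, and tested neighbours of the Apoa1 cluster. Some of these are given by count only.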

Additional observations from a re-analysis of the deposited data

How the results depend on the processing

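Apoa4 stayed higher, and Mogat2, Dgat1, Dgat2, Fabp2 and Apob stayed lower and past the threshold, under all 13 alternatives. With 1 library left out, 2899 to 4557 genes were called in all, 1235 to 2104 of them higher, and 8 to 17 pathway genes were higher. DESeq2's Wald test called 1244 genes higher, and with library totals 26 pathway genes were higher. Leaving out 1 library gave log2 fold changes of -0.27 to 0.052 for Apoa1, -0.35 to -0.14 for Apoc3, -0.023 to 0.00036 for Mttp, -0.59 to 0.0099 for Fabp1, -0.13 to 0.031 for Zpr1, -0.012 to 0.030 for Sidt2, -0.18 to 0.076 for Rbp2, -0.16 to 0.056 for Slc12a2 and -0.32 to 0.28 for Prox1, and a log2 difference of -0.18 to 0.29 for the ratio of Fabp1 to Fabp2. Members called lower numbered 5 without vehicle replicate 1 and 8 without SGC-CBP30 replicate 1. Library totals turned the sign of Mttp (0.060), Zpr1 (0.025), Rbp2 (0.027), Slc12a2 (0.029) and Prox1 (0.024), and upper-quartile scaling that of Mttp (0.023). These scalings moved the median of all genes to 0.083 and 0.046. Sidt2 was at -0.0083 with at least 50 counts and at -0.0099 with the length offset. The cause of these changes was not tested. Of the fits of named genes other than the 10, 747 kept direction and side of the threshold, 15 lost the call, 25 gained one and 13 changed sign.

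The labels do not say that equal replicate numbers pair the libraries, and same-numbered libraries did not deviate together (r = 0.014 over 9379 genes). With a replicate block 4703 genes were called, and 7 members were lower, Fabp1 (-0.29) being added. Within replicate numbers 1 and 2, as blocks, the log2 ratio difference was 0.96 and 0.47 for Apoa4 to Apob, -0.20 and -0.068 for Apoc3 to Apoa1 and 0.24 and 0.10 for Dgat2 to Dgat1, and -0.17 within number 2 for Fabp1 to Fabp2. The lowest count of a member in any library was 3375, above the limit of 3 counts.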
